A study of Mus musculus with 12 samples.

Results

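The genes described here belong to the guidance families, whose products tell moving cells and growing axons where to go or stop. They were chosen by name alone, as every Eph receptor, ephrin, semaphorin, plexin, neuropilin, Slit, Robo and netrin-1 name in the deposited array table. This gave 61 genes with 111 probes, among 30344 probes under 19060 gene names. A probe was used where its detection p was under 0.05 on at least 3 of the 12 arrays, which left 60 probes of 41 genes.

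RNA came from mouse embryos at E7.75, between the early bud and the early head-fold stage, cut into an anterior and a posterior part. Lhx1epiCKO embryos carry a null and a floxed allele of Lhx1 together with Cre from the Meox2 locus (Lhx1-/flox; Meox2+/Cre). Control embryos have a wild-type and a floxed allele and the same Cre (Lhx1+/flox; Meox2+/Cre), so their cells with Cre activity keep only the wild-type copy. The 4 groups were anterior Lhx1epiCKO, anterior control, posterior Lhx1epiCKO and posterior control, each with 3 arrays, and each array held RNA from a pool of 5 dissected parts. Meox2-driven Cre acts in the epiblast, so tissue outside it keeps the alleles of the germ line.

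Eph receptors are receptor tyrosine kinases whose ligands, the ephrins, sit on the membrane of the neighbouring cell. A-type ephrins are held by a lipid anchor and B-type ephrins span the membrane, and contact between the partners signals into both cells and often ends in repulsion or a sharp tissue boundary. Semaphorins are secreted or membrane-bound ligands of plexins, with neuropilins as co-receptors for the secreted class 3 members, Slit proteins act through Robo receptors, and netrins through Dcc and Unc5 receptors. In the gastrulating embryo these families are known from cell movement, germ layer and somite borders, blood vessels and the early neural plate.

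The targeted gene and the arrays that stood apart come first, because several results rest on them. Lhx1, the LIM homeobox transcription factor removed in the mutant, measured 6.84, 6.65 and 7.09 on the log2 scale in anterior Lhx1epiCKO parts, against 8.13, 8.25 and 8.44 in anterior control parts. In posterior parts it measured 6.85, 7.18 and 7.30 in Lhx1epiCKO, against 8.54, 6.90 and 8.35 in control. The array labelled posterior control replicate 2 therefore had Lhx1 at the level of the mutants. The position of the Lhx1 probe relative to the floxed sequence was not checked. On the array of posterior Lhx1epiCKO replicate 3, 779 of the 17041 kept probes deviated by over 1 (log2) from the other 2 arrays of its group, against 258 and 279 for those 2 arrays and 0 to 35 in the other 3 groups. That array had a summed signal of 21593 over 10 visceral endoderm markers, against 43948 and 43853 in the other 2 arrays of its group. Its sum over 5 surface ectoderm markers was 12215, against 7610 and 7701. Between 15416 and 16238 probes were above background on an anterior array and between 14243 and 14869 on a posterior one.

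The largest differences among the guidance genes lay between the anterior and the posterior parts. Ephrin-A1 and its receptors Epha1 and Epha2 were lower anteriorly in control embryos, as were Plxna2, Robo4 and Sema7a, while Sema3f, Nrp1 and Ephb1 were higher. The 250 bases before the annotated start of a gene are shown for 7 of these 9 genes, since these genes passed between the 2 parts; 8 of the 9 had such a window in the RefSeq table of build GRCm38.p6, and Sema3f is named only. Efna1 has 2 windows, of which the upstream one is printed. Capitals mark matches, on either strand, to short words named for the factors that read them: an OTX-type homeodomain word, a LIM-type homeodomain word, a TCF/LEF word, a T-box word, a TATA box and a GC box. No matches overlapped.
Efna1, chr3:89280952-89281201, minus strand, lower anteriorly: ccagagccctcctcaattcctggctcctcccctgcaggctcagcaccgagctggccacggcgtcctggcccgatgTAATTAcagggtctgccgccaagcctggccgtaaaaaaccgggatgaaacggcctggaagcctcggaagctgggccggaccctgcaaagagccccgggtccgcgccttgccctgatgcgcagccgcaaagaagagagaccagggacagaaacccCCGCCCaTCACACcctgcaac
Epha1, chr6:42373269-42373518, minus strand, lower anteriorly: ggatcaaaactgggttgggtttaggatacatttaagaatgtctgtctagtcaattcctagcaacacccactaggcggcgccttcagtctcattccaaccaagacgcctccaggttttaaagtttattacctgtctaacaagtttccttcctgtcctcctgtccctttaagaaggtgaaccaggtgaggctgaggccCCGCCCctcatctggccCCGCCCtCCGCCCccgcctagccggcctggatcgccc
Epha2, chr4:141300971-141301220, plus strand, lower anteriorly: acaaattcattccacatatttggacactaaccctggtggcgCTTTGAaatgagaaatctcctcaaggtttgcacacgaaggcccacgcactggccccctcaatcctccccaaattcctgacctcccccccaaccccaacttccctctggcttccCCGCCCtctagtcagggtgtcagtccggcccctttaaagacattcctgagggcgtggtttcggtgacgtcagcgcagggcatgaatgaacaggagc
Plxna2, chr1:194619579-194619828, plus strand, lower anteriorly: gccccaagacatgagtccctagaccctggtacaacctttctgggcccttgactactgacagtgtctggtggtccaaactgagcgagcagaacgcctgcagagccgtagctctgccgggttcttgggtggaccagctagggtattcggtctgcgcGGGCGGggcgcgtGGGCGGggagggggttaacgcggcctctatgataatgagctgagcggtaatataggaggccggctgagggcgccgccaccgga
Robo4, chr9:37401722-37401971, plus strand, lower anteriorly: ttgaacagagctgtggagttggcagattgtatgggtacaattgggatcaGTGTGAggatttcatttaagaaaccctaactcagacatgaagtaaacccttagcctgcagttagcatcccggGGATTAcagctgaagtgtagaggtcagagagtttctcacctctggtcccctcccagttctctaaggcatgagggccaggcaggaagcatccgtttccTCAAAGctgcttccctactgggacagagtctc
Ephb1, chr9:102354694-102354943, minus strand, higher anteriorly: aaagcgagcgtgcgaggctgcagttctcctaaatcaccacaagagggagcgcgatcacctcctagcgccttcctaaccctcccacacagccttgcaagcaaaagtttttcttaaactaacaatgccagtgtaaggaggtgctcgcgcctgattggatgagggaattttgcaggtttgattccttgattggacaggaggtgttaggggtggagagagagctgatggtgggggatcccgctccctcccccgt
Nrp1, chr8:128358823-128359072, plus strand, higher anteriorly: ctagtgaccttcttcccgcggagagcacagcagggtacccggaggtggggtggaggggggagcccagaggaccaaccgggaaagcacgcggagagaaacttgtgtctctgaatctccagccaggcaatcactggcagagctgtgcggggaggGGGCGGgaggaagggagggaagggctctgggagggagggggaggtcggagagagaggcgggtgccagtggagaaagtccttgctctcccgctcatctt

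The GC box (GGGCGG), the word read by general activators of the SP family, was the most frequent match in these windows. It stood in 7 of the 9 windows, those of 6 of the 8 genes, against 32.7% of 32851 windows of the same length. The windows compared were not matched for base composition. The share of G and C in the 9 windows ranged from 49.6% (Robo4) to 66.4% (Sema7a). All but the Robo4 window lay above the median of all windows, 52.4%. Epha1 held 3 GC boxes, at positions -54, -37 and -30 relative to the start, and Plxna2 held 2. The LIM-type word (TAATTA, its own reverse complement) stood in the printed Efna1 window at position -175, and in 4.84% of all windows. The TCF/LEF word (CTTTGA) was found in the windows of Epha2 and Robo4 and in 13.8% of all windows. The T-box word (TCACAC) was found in those of Efna1 and Robo4 and in 12.3% of all windows. The OTX-type word (TAATCC) stood in 1 of the 9 windows, that of Robo4, and in 6.25% of all windows. The TATA box (TATAAA) was found in 0 of the 9 and in 12.4% of all windows, and the Ephb1 window held none of these words. The matches describe the letters of the reference sequence only.

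In Lhx1epiCKO embryos 4 of the 60 probes differed between the anterior and the posterior part at a Benjamini-Hochberg adjusted p under 0.05 in limma, against 1.27% of all 17041 kept probes. Of these 4, 1 was higher anteriorly, against 0.417% of all probes, and 3 were lower, against 0.851%. In control embryos 11 of the 60 probes passed, against 3.01% of all probes; 3 were higher, against 1.36%, and 8 lower, against 1.65%. The arrays of the 2 parts did not overlap for 22 of the 60 probes in Lhx1epiCKO (36.7%), against 18.0% of all probes. Of those 22, 12 were higher anteriorly, against 10.6% of all probes, and 10 lower, against 7.37%. In controls 26 did not overlap (43.3%), against 22.7% of all probes, 15 of them higher, against 13.3%, and 11 lower, against 9.33%. Some of these probes reached the 3 arrays of the filter only with the brighter part counted. Those higher anteriorly in both genotypes were both Epha3 probes, Epha7 and the dimmer Efna5 probe. In Lhx1epiCKO a dimmer Sema6b probe was also higher, and Robo2 and the dimmer Robo4 probe lower. In controls the dimmer Sema3b probe was also higher. Nothing is read from the lack of overlap of these probes. Efna1, Epha1 and Plxna2 were lower anteriorly in both genotypes, and Sema3f was higher in both. The 7 further probes, of Epha1, Epha2, Robo4, Sema7a, Ephb1 and Nrp1, passed in controls, and in Lhx1epiCKO each had the same sign without passing. In bulk tissue, fewer cells of a type and less RNA per cell cannot be told apart.

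Among the ligands, Efna1 had the smallest p. It measured 7.50, 7.65 and 7.59 in anterior Lhx1epiCKO parts, against 8.58, 8.40 and 8.67 in posterior Lhx1epiCKO parts, and 7.39, 7.50 and 7.25 in anterior control parts, against 8.50, 8.44 and 8.30 in posterior control parts. Every anterior array lay below every posterior array in both genotypes. In Lhx1epiCKO the level was 1.96-fold lower anteriorly (log2 difference -0.97 ± 0.11, SE, limma adjusted p = 0.000602), and in controls 2.05-fold lower (-1.03 ± 0.11, adjusted p = 0.000104). Both calls held in each of the alternative fits.

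Epha1, a receptor for A-type ephrins, differed most in size. Its brightest probe measured 8.86, 9.19 and 9.69 in anterior Lhx1epiCKO parts, against 10.42, 10.40 and 10.90 in posterior Lhx1epiCKO parts. In controls the anterior parts measured 8.75, 9.27 and 9.16, against 10.30, 10.98 and 10.63 in the posterior parts. The parts did not overlap in either genotype. The anterior level was 2.50-fold lower in Lhx1epiCKO (-1.32 ± 0.23, limma adjusted p = 0.0107) and 2.99-fold lower in controls (-1.58 ± 0.23, adjusted p = 0.00158). Without anterior Lhx1epiCKO replicate 1 or 2 the Lhx1epiCKO difference did not pass (-1.13 and -1.29, adjusted p = 0.0754 and adjusted p = 0.0568). The gene has 4 kept probes, all negative in both genotypes. In controls 2 of the other 3 also passed, with differences of -0.85 (adjusted p = 0.0171) and -1.19 (adjusted p = 0.0324), and the last had -0.41 (adjusted p = 0.232). Neither of these 2 calls held without any 1 anterior control array or posterior control replicate 2 or 3, where the adjusted p ranged from 0.0631 to 0.147. That with -1.19 was also lost without posterior control replicate 1 (adjusted p = 0.0665) or anterior Lhx1epiCKO replicate 3 (adjusted p = 0.0514). The probe with -1.19 in controls read 9.16, 9.39 and 8.06 in posterior Lhx1epiCKO parts. Without the third of these, the replicate 3 that stood apart, its difference in Lhx1epiCKO passed at -1.21 (adjusted p = 0.000369) in place of -0.81 (adjusted p = 0.237).

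Epha2, another receptor for A-type ephrins and a known partner of ephrin-A1, passed in controls. It measured 7.41, 7.31 and 7.54 in anterior Lhx1epiCKO parts, against 7.65, 7.60 and 7.79 in posterior Lhx1epiCKO parts, and 7.10, 7.11 and 7.14 in anterior control parts, against 8.07, 8.01 and 7.81 in posterior control parts. The 3 anterior control arrays were the lowest of the 12 and the 3 posterior control arrays the highest, with the Lhx1epiCKO arrays between them. In Lhx1epiCKO the difference between the parts was -0.26 ± 0.10 (limma adjusted p = 0.335), and in controls the anterior level was 1.80-fold lower (-0.85 ± 0.10, adjusted p = 0.000391).

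Ephb1, a receptor for B-type ephrins, was higher anteriorly in controls. It measured 9.01, 8.97 and 8.71 in anterior Lhx1epiCKO parts, against 8.17, 8.54 and 8.64 in posterior Lhx1epiCKO parts. The control values were 9.49, 9.22 and 9.13 in anterior parts, against 8.45, 8.13 and 8.43 in posterior parts. No anterior array fell within the posterior range of its genotype. The difference was 0.45 ± 0.15 in Lhx1epiCKO (limma adjusted p = 0.237) and 0.95 ± 0.15 in controls (1.93-fold, adjusted p = 0.00303).

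**Figure D1:**
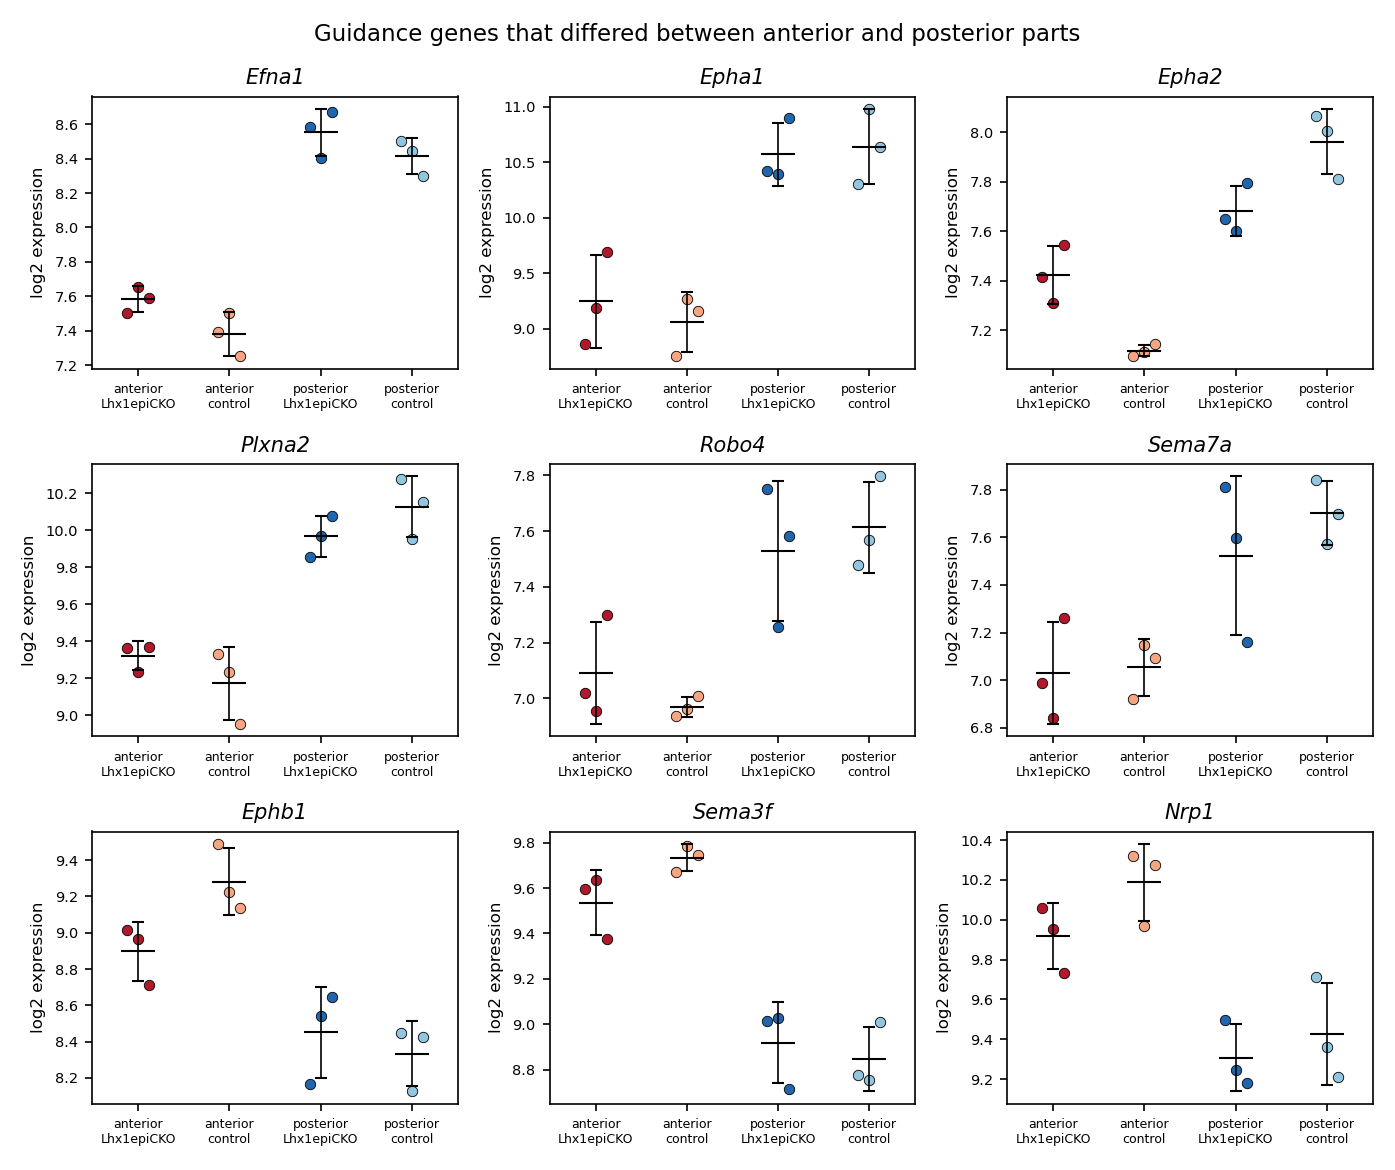
Log2 expression of the 9 guidance genes that passed between the anterior and posterior part in at least 1 genotype, by group. Each point is an array (a pool of 5 parts), the long bar the mean and the whiskers 1 SD, n = 3 for each group, and each panel has its own axis. Efna1, Epha1, Epha2, Plxna2, Robo4 and Sema7a sit lower in the anterior groups, while Ephb1, Sema3f and Nrp1 sit higher there.

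Sema3f, a secreted class 3 semaphorin best known as a ligand of Nrp2, was the semaphorin with the largest difference. It measured 9.60, 9.64 and 9.37 in anterior Lhx1epiCKO parts, against 9.01, 9.03 and 8.71 in posterior Lhx1epiCKO parts, and 9.67, 9.79 and 9.75 in anterior control parts, against 8.77, 8.75 and 9.01 in posterior control parts. All anterior arrays lay above all posterior arrays. The anterior level was 1.53-fold higher in Lhx1epiCKO (0.62 ± 0.12, limma adjusted p = 0.0219) and 1.85-fold higher in controls (0.89 ± 0.12, adjusted p = 0.000844). Without anterior Lhx1epiCKO replicate 1 or 2 the Lhx1epiCKO difference did not pass (0.59 and 0.57, adjusted p = 0.147 and adjusted p = 0.121). Its other kept probe had 0.59 in Lhx1epiCKO (adjusted p = 0.197) and 0.71 in controls (adjusted p = 0.0637).

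Nrp1, a co-receptor for class 3 semaphorins that also binds VEGF, was likewise higher anteriorly in controls. The Lhx1epiCKO values were 10.06, 9.95 and 9.73 in anterior parts, against 9.50, 9.24 and 9.18 in posterior parts. In controls it measured 10.32, 9.97 and 10.28 in anterior parts, against 9.71, 9.36 and 9.21 in posterior parts. The parts did not overlap in either genotype. The difference was 0.61 ± 0.15 in Lhx1epiCKO (limma adjusted p = 0.0859) and 0.76 ± 0.15 in controls (1.70-fold, adjusted p = 0.0141). A second probe had 0.49 in Lhx1epiCKO (adjusted p = 0.127) and 0.46 in controls (adjusted p = 0.111). Without the array labelled posterior control replicate 2, the control call was lost at 0.73 (adjusted p = 0.0681), as it was without anterior control replicate 1 (0.70, adjusted p = 0.0795) or 3 (0.72, adjusted p = 0.0699) or posterior control replicate 3 (0.65, adjusted p = 0.0690). Nrp2, the other neuropilin, did not pass in either genotype (adjusted p = 0.920 in Lhx1epiCKO and adjusted p = 0.677 in controls).

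Plxna2, a receptor for the transmembrane Sema6a and, with neuropilins, for class 3 semaphorins, was lower anteriorly. Its levels were 9.36, 9.23 and 9.37 in anterior Lhx1epiCKO parts, against 9.86, 9.97 and 10.08 in posterior Lhx1epiCKO parts. In controls they were 9.33, 9.23 and 8.95 in anterior parts, against 10.28, 9.95 and 10.15 in posterior parts. Again no anterior array reached a posterior one. The difference was -0.65 ± 0.12 in Lhx1epiCKO (1.56-fold lower, limma adjusted p = 0.0191) and -0.96 ± 0.12 in controls (1.94-fold lower, adjusted p = 0.000575). In Lhx1epiCKO the call was lost without any 1 of the 3 anterior arrays or posterior replicate 2 of this genotype (-0.67 to -0.60, adjusted p from 0.0533 to 0.110). The other 4 plexins with a kept probe had differences from -0.10 to 0.30 in Lhx1epiCKO and from -0.04 to 0.16 in controls, and none passed.

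Sema7a, a lipid-anchored semaphorin, passed narrowly in controls. It measured 6.99, 6.84 and 7.26 in anterior Lhx1epiCKO parts, against 7.81, 7.60 and 7.16 in posterior Lhx1epiCKO parts, and 6.92, 7.15 and 7.09 in anterior control parts, against 7.84, 7.57 and 7.70 in posterior control parts. The parts overlapped in Lhx1epiCKO through replicate 3 of each, and not in controls. The difference was -0.49 ± 0.16 in Lhx1epiCKO (limma adjusted p = 0.221) and -0.65 ± 0.16 in controls (1.57-fold lower, adjusted p = 0.049). Without posterior Lhx1epiCKO replicate 3 it passed in Lhx1epiCKO as well, at -0.68 (adjusted p = 0.0126), and in controls it did not pass once posterior control replicate 2 was left out (-0.72, adjusted p = 0.0894). Leaving out any 1 control array lost the control call (-0.72 to -0.58, adjusted p from 0.0894 to 0.198). So did leaving out any 1 anterior Lhx1epiCKO array or posterior Lhx1epiCKO replicate 2, with the difference unchanged and an adjusted p from 0.0538 to 0.0826.

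Robo4, a Robo receptor best known from endothelial cells, was lower anteriorly in controls. Its brighter probe measured 7.02, 6.96 and 7.30 in anterior Lhx1epiCKO parts, against a mean of 7.53 ± 0.25 in posterior Lhx1epiCKO parts (SD, n = 3), and 6.94, 6.96 and 7.01 in anterior control parts, against 7.48, 7.57 and 7.80 in posterior control parts. The parts overlapped in Lhx1epiCKO and not in controls. The difference was -0.44 ± 0.14 in Lhx1epiCKO (limma adjusted p = 0.204) and -0.65 ± 0.14 in controls (1.56-fold lower, adjusted p = 0.0229). A second Robo4 probe, above background on only 4 of 12 arrays, gave 0.04 in controls. The mean of both probes did not pass (-0.30, adjusted p = 0.107). Without the array labelled posterior control replicate 2 the brighter probe had -0.67 (adjusted p = 0.0678), and without any 1 of the anterior control arrays or posterior control replicate 3 it had -0.67 to -0.55 (adjusted p from 0.0699 to 0.0988). Of 10 endothelial markers 8 were measured, and Emcn and Tie1 were not kept. None of the 8 passed in any comparison, and their summed signal ranged from 6245 to 6882 in anterior Lhx1epiCKO parts, 5853 to 6867 in anterior control parts, 5405 to 8267 in posterior Lhx1epiCKO parts and 5467 to 6391 in posterior control parts.

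Each of the 11 probes called in controls had the same sign in Lhx1epiCKO and a smaller size there. Since they were chosen for passing in controls, this is a description, and over all probes called in controls 503 of 513 had the same sign and 468 of 513 a smaller size. Without posterior Lhx1epiCKO replicate 3, 7 member probes passed in Lhx1epiCKO, against 2.26% of all probes in that fit, and 14 in controls, against 5.32%. Once the array labelled posterior control replicate 2 was left out, 4 passed in Lhx1epiCKO, against 1.21% of all probes, and 6 in controls, against 1.76%. Those 6 were the brightest probes of Efna1, Epha1, Epha2, Plxna2, Sema3f and Ephb1.

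**Figure D2:**
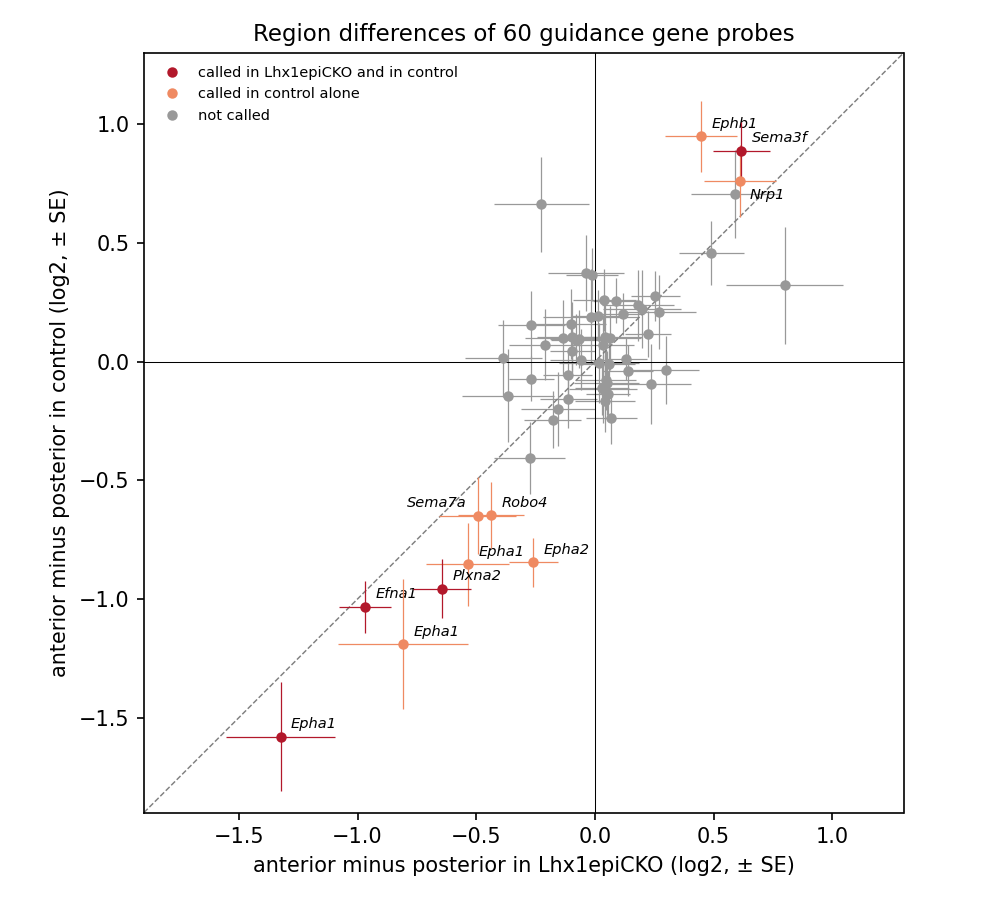
Anterior minus posterior log2 difference of the 60 guidance probes in Lhx1epiCKO embryos (horizontal) and control embryos (vertical), each with its SE from limma, n = 3 arrays for each group; the dashed line marks equal differences. The 4 probes called in both genotypes are dark red, the 7 called in controls alone orange and the others grey, and the called points lie in the lower left and upper right corners, nearer to 0 on the Lhx1epiCKO axis than on the control axis.

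Markers of the primitive streak and caudal tissue differed between the parts together with these genes. Of 13 listed markers 12 were measured, and all 12 had a negative difference in both genotypes. Of them 10 passed in Lhx1epiCKO (median log2 difference -1.67) and 11 in controls (median -2.77). Their summed signal ranged from 5588 to 10095 in anterior Lhx1epiCKO parts and 25969 to 31796 in posterior Lhx1epiCKO parts, and from 3435 to 4268 in anterior control parts and 24855 to 34628 in posterior control parts. For the anterior neural plate 6 of 12 markers were measured, and Six3, Rax, Fezf1, Zic1, Lmo1 and Nkx2-1 were not kept. Of the 6, 2 passed as higher anteriorly in Lhx1epiCKO (Foxd4 and Otx2) and 4 in controls (also Lhx5 and Sox2). The sum over those measured was 1956 to 2248 in anterior Lhx1epiCKO parts and 808 to 978 in posterior Lhx1epiCKO parts, against 4495 to 4892 in anterior control parts and 905 to 1258 in posterior control parts. Of 8 anterior mesendoderm markers, 2 passed as higher anteriorly in Lhx1epiCKO (Cer1 and Otx2) and 5 in controls (also Dkk1, Hhex and Shh). Their sum was 2939 to 3188 in anterior Lhx1epiCKO parts and 1509 to 2079 in posterior Lhx1epiCKO parts, against 5119 to 5613 in anterior control parts and 1713 to 2079 in posterior control parts. Otx2 and Shh each stand in more than 1 list. Of 4 measured neural crest markers, 1 passed as higher anteriorly in Lhx1epiCKO (Snai2) and 2 in controls (Snai2 and Sox9). Of 7 cardiac markers, 3 passed as higher in Lhx1epiCKO (Myl4, Myl7 and Nkx2-5) and 2 in controls (Myl7 and Smarcd3). Of 7 allantois markers, 2 passed as lower anteriorly in Lhx1epiCKO (Bmp4 and Tbx4) and 3 in controls (also Foxf1). Among 9 node and notochord markers Nodal was lower in both genotypes, and in controls T was lower and Shh higher. Among 7 somite markers Dll1 was lower and Tcf15 higher anteriorly in both genotypes, Foxc2 was higher in Lhx1epiCKO and Meox1 lower in controls. None of the endothelial, primitive blood, visceral endoderm, trophoblast, decidual and surface ectoderm markers passed between the parts. All arrays carry the tissue label of embryonic head, and the neural plate sums were low in both posterior groups. The part of these tissues in the differences of the guidance genes was not tested.

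Loss of Lhx1 changed no guidance gene past the threshold in the anterior parts. None of the 60 probes passed in limma, against 0.0704% of all probes (12 probes, 0.0235% higher and 0.0469% lower in Lhx1epiCKO). At an unadjusted p under 0.05 there were 4 member probes (6.67%), against 1.93% of all probes, and each of the 6 genes of smallest p had an adjusted p of 1. The arrays of the 2 genotypes did not overlap for 17 of the 60 probes (28.3%), against 12.2% of all probes. Of these, 6 were higher in Lhx1epiCKO, against 5.76% of all probes, and 11 lower (18.3%), against 6.48%. The Epha3 probe among them passed the filter on low values only through anterior Lhx1epiCKO. Ephb3 and the dimmer Efna5 probe passed it only with the anterior control arrays counted, the group where they were higher. Nothing is read from the lack of overlap of these probes. By brightest probe, those higher were Epha2, Epha3, Efna1, Efnb1, Sema4d and Nrp2, and those lower Ephb1, Ephb3, Efna4, Efna5, Sema3f, Sema5b, Sema6d, Robo1 and Robo3. The median difference over the 41 genes was -0.05, against 0.00 over all probes, and 14 of the 41 were positive.

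Sema6d, a transmembrane semaphorin and ligand of plexin-A1, had the smallest unadjusted p. It measured 6.99, 6.99 and 6.96 in anterior Lhx1epiCKO parts, against 7.14, 7.54 and 7.35 in anterior control parts, and the groups did not overlap. The Lhx1epiCKO values lay near the lowest detected signal of those arrays, 6.77 to 6.81. The difference was -0.36 ± 0.11 (limma adjusted p = 1). In posterior parts it measured 6.92 to 7.06 in Lhx1epiCKO, against 7.04, 7.03 and 6.86 in control (0.02 ± 0.11, adjusted p = 0.972), so that the anterior control parts were the highest of the 4 groups.

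Robo1, a Slit receptor, had the largest difference in size between genotypes in the anterior parts. It measured 9.52, 9.19 and 9.50 in anterior Lhx1epiCKO parts, against 9.94, 10.01 and 9.89 in anterior control parts, without overlap (-0.55 ± 0.20, limma adjusted p = 1). In posterior parts it measured 9.23, 9.44 and 10.20 in Lhx1epiCKO, against 9.13, 9.45 and 9.29 in control (0.34 ± 0.20, adjusted p = 0.570). The value of 10.20 was that of replicate 3, and without this array the posterior difference was 0.05. The difference between the parts in controls, 0.66, then passed (adjusted p = 0.00231), while with all arrays it did not (adjusted p = 0.120). A second Robo1 probe, above background on only 3 of 12 arrays, gave -0.01 anteriorly.

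Epha2 was higher in anterior Lhx1epiCKO parts than in anterior control parts in all 3 arrays (0.30 ± 0.10, limma adjusted p = 1), with the values given above. Ephb1 was lower there in all 3 arrays (-0.38 ± 0.15, adjusted p = 1). Efna1 (0.20 ± 0.11) and Nrp1 (-0.27 ± 0.15) completed the 6 genes of smallest p, and only Efna1 of these showed no overlap. For Efna1 the margin was minimal, with a lowest anterior Lhx1epiCKO value of 7.5033 and a highest anterior control value of 7.5031. In another fit the arrays were weighted by limma, with weights estimated from the spread of each array around its group mean in these same values. The weights were 5.78 for anterior Lhx1epiCKO replicate 1, 4.76 for anterior control replicate 2, 0.812 to 1.72 for the other anterior arrays and 0.147 to 0.713 for the posterior ones, with posterior Lhx1epiCKO replicate 3 the lowest. With these weights 1.44% of all probes passed in limma between genotypes in anterior parts, in place of 0.0704%. Among them were Sema6d (-0.45, adjusted p = 0.00386), Epha2 (0.31, adjusted p = 0.0112) and Robo1 (-0.52, adjusted p = 0.00228). These calls rest mainly on the anterior array of largest weight in each genotype.

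Between genotypes in anterior parts, the differences of the same streak and caudal markers were positive for 12 of 12 (median 0.91) and 1 passed, Wnt8a. Of the anterior neural plate markers none of 6 was positive (median -0.39) and Foxd4 passed. Of the anterior mesendoderm markers 1 of 8 was positive (median -0.46) and Shh passed (-1.27 ± 0.18, limma adjusted p = 0.0221). The ranges of their sums are given above and do not overlap between the genotypes in anterior parts.

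**Figure D3:**
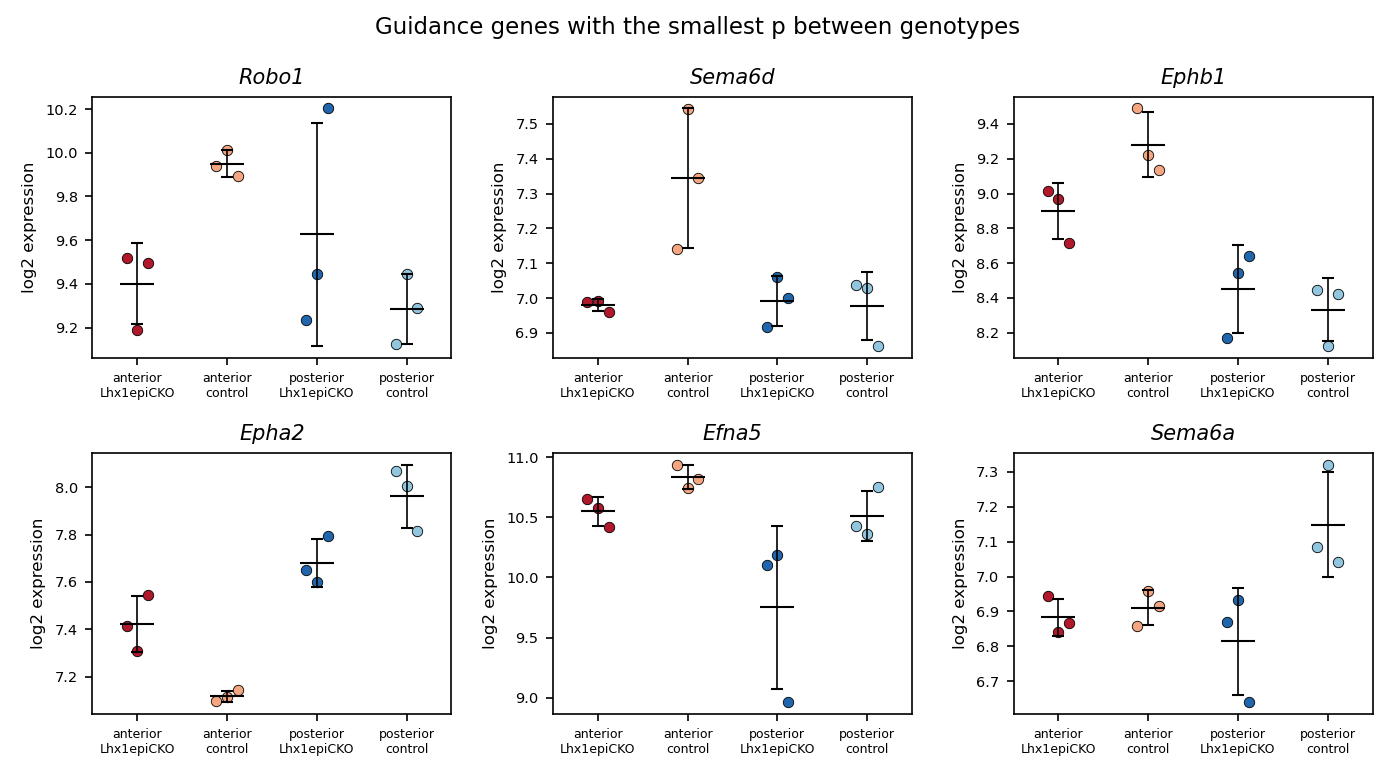
Log2 expression of 6 guidance genes with small p between genotypes, by group. Each point is an array (a pool of 5 parts), the long bar the mean and the whiskers 1 SD, n = 3 for each group, and each panel has its own axis. Robo1, Sema6d and Ephb1 sit lower and Epha2 higher in anterior Lhx1epiCKO than in anterior control parts; for Efna5 a single posterior Lhx1epiCKO array, at 8.96, lies far below the rest.

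In posterior parts none of the 60 probes passed between genotypes in limma, against 0.0% of all probes. At an unadjusted p under 0.05 there were 6 of 60 member probes, against 9.64% of all probes, and 6 of 60 did not overlap, against 9.33%. Of these, 2 were higher in Lhx1epiCKO (3.33%), against 4.65% of all probes, and 4 lower (6.67%), against 4.68%. The 2 higher ones, dim probes of Sema6b and Robo1, passed the filter only with posterior Lhx1epiCKO arrays counted. Nothing is read from their lack of overlap. The shares lay close to those of all probes.

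Efna5, a lipid-anchored ephrin that binds A-type receptors and Ephb2, had the largest posterior difference. It measured 10.10, 10.19 and 8.96 in posterior Lhx1epiCKO parts, against 10.42, 10.37 and 10.75 in posterior control parts (-0.76 ± 0.25, 1.70-fold lower, limma adjusted p = 0.499). Without the third Lhx1epiCKO array, the one that stood apart, the difference was -0.37 (adjusted p = 0.391). In anterior parts it measured 10.65, 10.58 and 10.42 in Lhx1epiCKO, against 10.94, 10.75 and 10.82 in control (-0.28 ± 0.25, adjusted p = 1). On this probe Lhx1epiCKO was the lower genotype without overlap in both parts, and a second, dim probe had -0.11 anteriorly and 0.06 posteriorly (0.04 without posterior Lhx1epiCKO replicate 3).

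Sema6a, a transmembrane ligand of plexin-A2 and plexin-A4, measured 6.87, 6.93 and 6.64 in posterior Lhx1epiCKO parts, against 7.09, 7.32 and 7.04 in posterior control parts (-0.33 ± 0.11, limma adjusted p = 0.499). Its other 2 kept probes had -0.14 each, which became 0.00 for one without posterior Lhx1epiCKO replicate 3 and -0.01 for the other without the array labelled posterior control replicate 2. Epha2 was lower in all 3 posterior Lhx1epiCKO arrays (-0.28 ± 0.10, adjusted p = 0.504). Sema5b, a transmembrane semaphorin, had -0.25 ± 0.11 with overlap, and Sema3b, a secreted one, -0.21 ± 0.11 without overlap. A second Sema6b probe had 0.42 ± 0.14 (adjusted p = 0.504). It was above background on 2 posterior Lhx1epiCKO arrays and 0 posterior control arrays, so nothing is read from this value. The brightest Sema6b probe had 0.25 ± 0.16. It had 0.13 without posterior Lhx1epiCKO replicate 3, 0.13 without the array labelled posterior control replicate 2 and 0.01 without both. The last of the 3 had -0.12, or -0.20 without that control array.

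**Figure D4:**
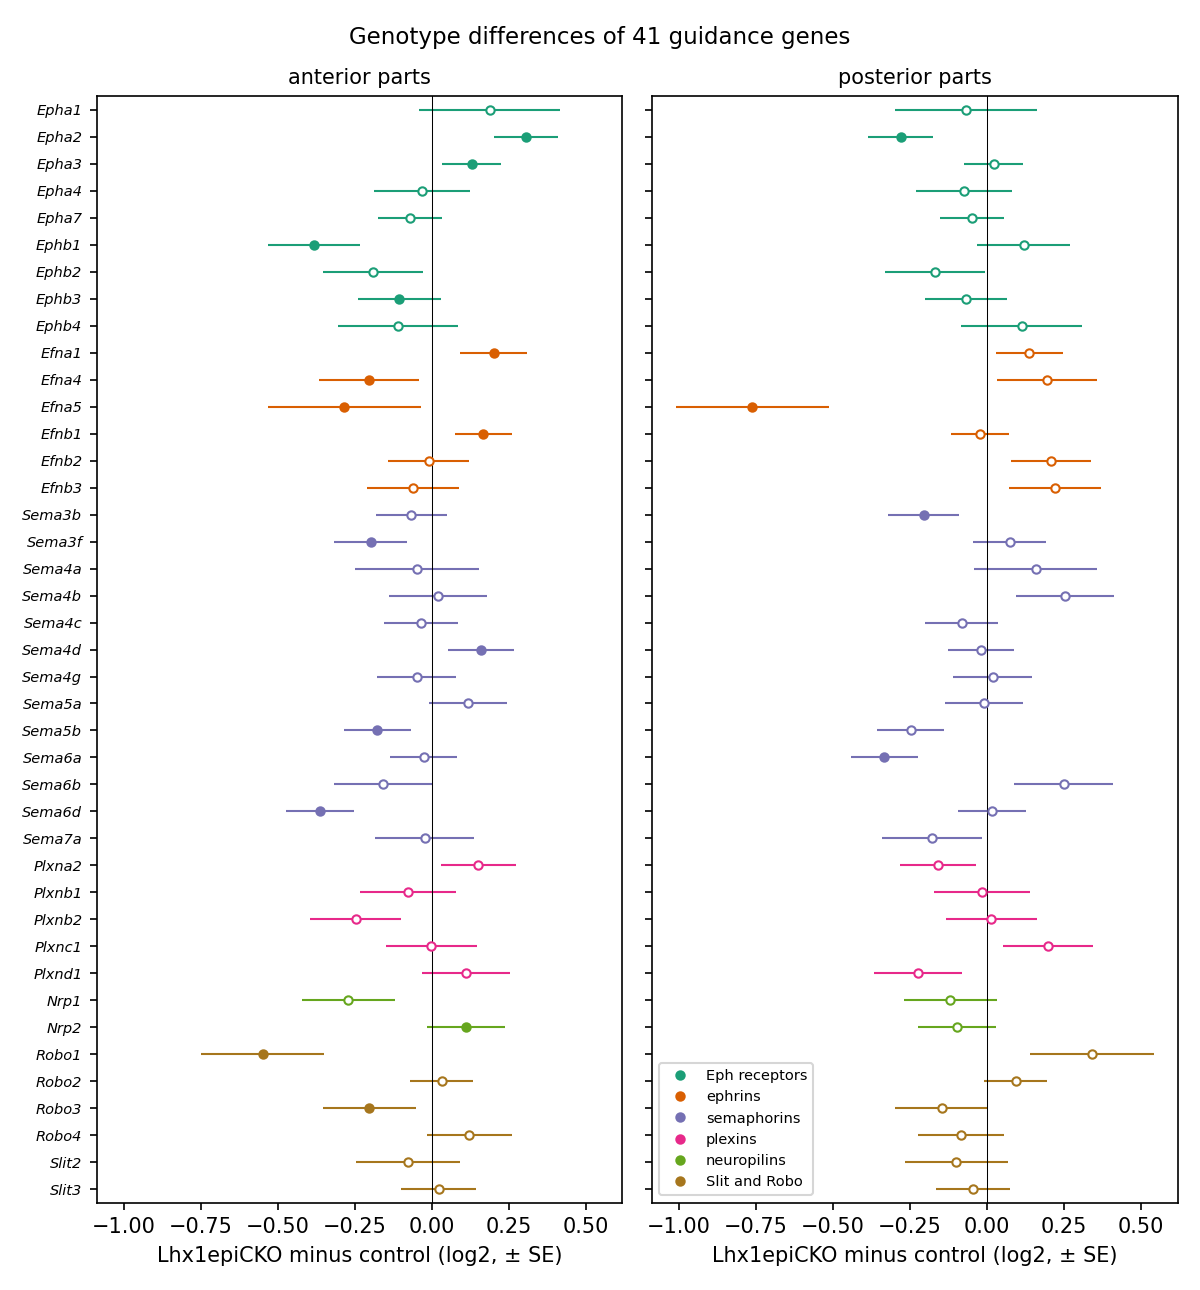
Lhx1epiCKO minus control log2 difference of the 41 guidance genes (brightest kept probe) in anterior parts (left) and posterior parts (right), with the SE from limma, n = 3 arrays for each group and colours for the families. Filled points are genes whose 3 arrays of each genotype do not overlap, 15 in anterior and 4 in posterior parts. Over all probes the genotypes did not overlap for 12.2% in anterior and 9.33% in posterior parts. Nothing is read from the filled anterior points of Epha3 and Ephb3, which passed the filter only through the group where they were higher. None of the 41 genes passed the adjusted threshold.

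The difference between the 2 genotype effects was tested as an interaction. None of the 60 probes passed, against 0.0% of all probes, and 4 had an unadjusted p under 0.05 (6.67%), against 3.41% of all probes. Epha2 had the smallest p, with an anterior effect of 0.30 and a posterior effect of -0.28 (difference 0.59 ± 0.15, limma adjusted p = 0.981). Robo1 had -0.89 ± 0.28 (adjusted p = 0.981), and -0.60 without posterior Lhx1epiCKO replicate 3. Ephb1 had -0.50 ± 0.21 and Sema6d -0.38 ± 0.16, both with an adjusted p of 0.981.

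Detection counts are given here for some members near background, among them Eph receptors and Robo3, which were picked on these counts. Over all 111 member probes, 50 to 60 were above background on an anterior array and 42 to 49 on a posterior one. Of all 30344 probes, 15416 to 16238 were above background on an anterior array and 14243 to 14869 on a posterior one. The lower posterior count was thus not particular to the members. The kept probe of Epha7, an A-type receptor, was above background on 3 of 3 anterior Lhx1epiCKO arrays and 3 of 3 anterior control arrays, against 0 of 3 posterior Lhx1epiCKO arrays and 1 of 3 posterior control arrays. It measured 6.97, 6.91 and 7.10 in anterior Lhx1epiCKO parts, at least 1.10-fold above the lowest detected signal of the posterior Lhx1epiCKO arrays (limma adjusted p = 0.339). Epha3, also A-type, had 1 kept probe above background on 3 anterior Lhx1epiCKO arrays alone, another on 1 anterior Lhx1epiCKO and 2 anterior control arrays, and neither on a posterior array. Ephb3, a B-type receptor, was detected on 3 anterior control arrays and 1 posterior control array. Robo3 was detected on 5 anterior arrays and 1 posterior array. Epha4 and Sema4c went the other way, each detected on 1 anterior array and 3 posterior arrays. Such probes sit at the edge of detection, and the lowest detected signal was 6.77 to 6.81 on anterior arrays and 6.83 to 6.87 on posterior ones. Each of these kept probes reached the 3 arrays of the filter only with the part of more detections counted. No difference between the parts is read from their counts.

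Of the 61 genes, 24 had a probe above background on all 12 arrays and 8 had none on any array. The 20 genes without a kept probe were the Eph receptors Epha5, Epha6, Epha8, Epha10 and Ephb6, the ephrins Efna2 and Efna3, and the semaphorins Sema3a, Sema3c, Sema3d, Sema3e, Sema3g, Sema4f and Sema6c. The others were the plexins Plxna1, Plxna3, Plxna4 and Plxnb3, the ligand Slit1 and Ntn1, which encodes netrin-1. By family, 9 of 14 Eph receptors, 6 of 8 ephrins, 13 of 20 semaphorins, 5 of 9 plexins, 2 of 2 neuropilins, 6 of 7 Slit and Robo genes and 0 of 1 netrin were kept.

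**Figure D5:**
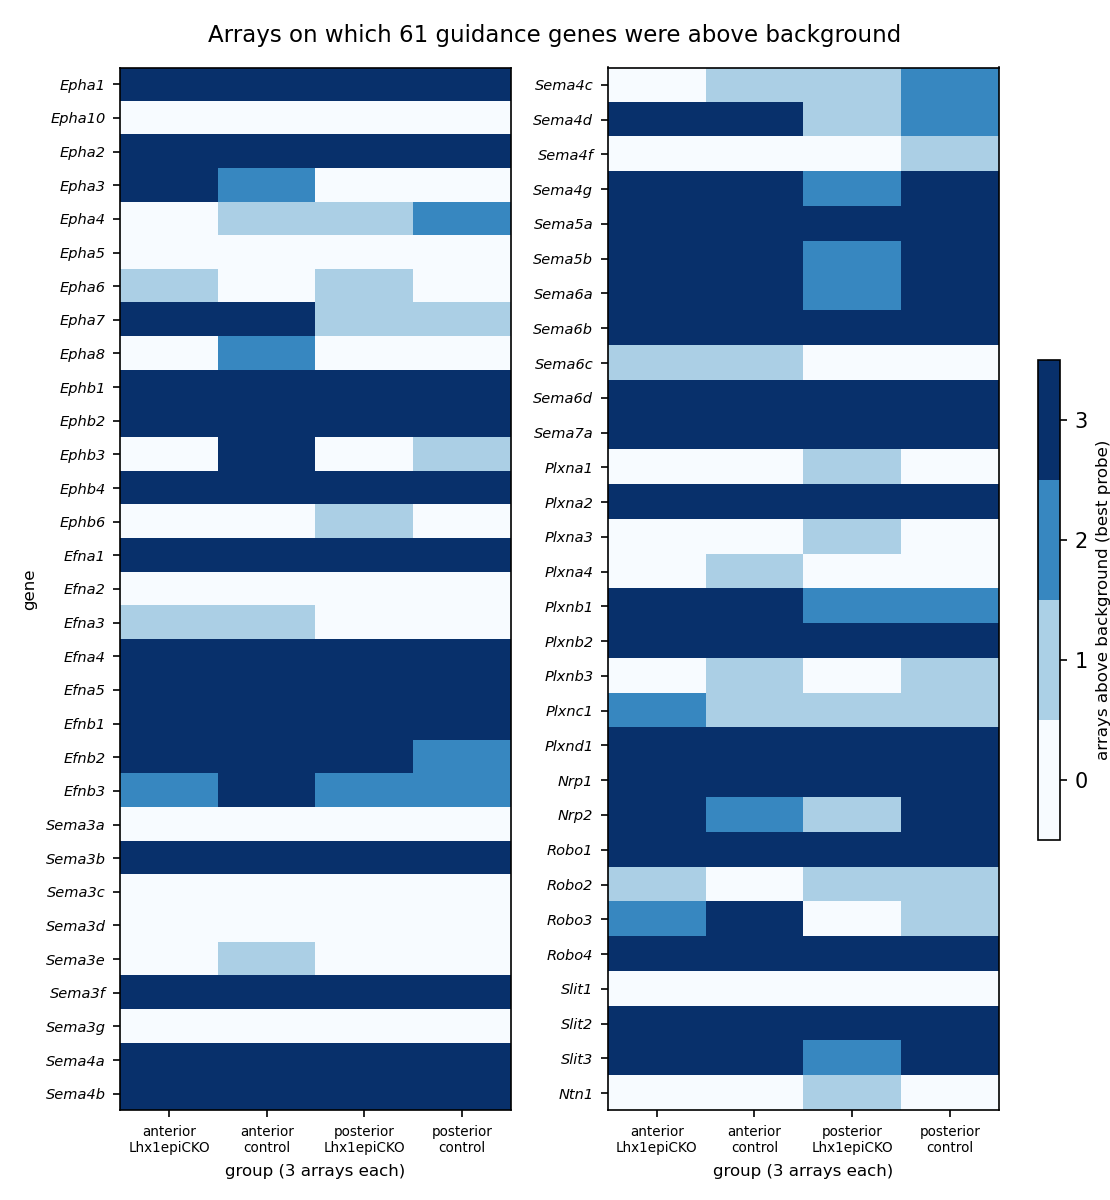
Number of arrays, of 3 in each group, on which each of the 61 guidance genes was above background (detection p under 0.05), taken as the highest over the gene's probes within the group. Dark cells mark 3 of 3 arrays, and rows that stay pale throughout are among the 20 genes left out. Epha7 and Epha3 are darker in the anterior groups, and passed the filter only with anterior arrays counted.

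By family, the differences spread to either side of 0. Between the parts in controls, the 9 Eph receptors ranged from -1.58 to 0.95 (log2), the 6 ephrins from -1.03 to 0.32, the 13 semaphorins from -0.65 to 0.89 and the 6 Slit and Robo genes from -0.65 to 0.66. The median absolute difference of the 41 genes was 0.16 in Lhx1epiCKO and 0.19 in controls, against 0.13 and 0.12 over all probes. Efnb1, a transmembrane ephrin, averaged 9.98 ± 0.02 in anterior Lhx1epiCKO parts and 9.81 ± 0.08 in anterior control parts (SD, n = 3 each), without overlap (0.17 ± 0.09, limma adjusted p = 1). Efnb2, a transmembrane ligand known from arteries and somites, had anterior minus posterior differences of 0.04 in Lhx1epiCKO (0.18 without posterior Lhx1epiCKO replicate 3) and 0.26 in controls (0.17 without the array labelled posterior control replicate 2), and neither passed. Sema4b, a transmembrane semaphorin, measured 10.17, 10.06 and 10.16 in anterior Lhx1epiCKO parts, against 10.11, 10.06 and 10.16 in anterior control parts, which overlapped fully. Slit2 and Slit3, secreted Robo ligands, did not pass between the parts. Slit3 had -0.18 in Lhx1epiCKO (-0.03 without posterior Lhx1epiCKO replicate 3) and -0.25 in controls.

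Several members lie side by side in the genome, with no protein-coding gene between them. Efna1, Efna3 and Efna4 follow each other on chromosome 3, Robo1 and Robo2 on chromosome 16, Robo3 and Robo4 on chromosome 9, and Sema3a and Sema3d on chromosome 5. Efna3, Sema3a and Sema3d had no kept probe, so only the Robo pairs were left as neighbours, and neither had both genes called. Robo2 was above background on only 3 of 12 arrays and Robo3 on 6, so nothing is read from this. Efna4 had anterior minus posterior differences of -0.39 in Lhx1epiCKO (limma adjusted p = 0.354), -0.16 without posterior Lhx1epiCKO replicate 3, and 0.01 in controls. Of the 15 genes with more than 1 kept probe, 10 had the same sign on all of them for the region difference in controls.

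Partners of these families were also read from lists. Of the Eph and ephrin partners 20 of 24 were measured, of the semaphorin and plexin partners 21 of 27, of the Slit and Robo partners 12 of 16 and of the netrin and related guidance partners 15 of 20. None passed between genotypes in either part or between the parts in Lhx1epiCKO. In controls 2 of the 67 distinct genes passed (2.99%), both lower anteriorly, a share near the 3.01% of all probes. Tiam1, a Rac exchange factor that binds Eph receptors and ephrins, had -0.35 ± 0.11 in Lhx1epiCKO (limma adjusted p = 0.216) and -0.68 ± 0.11 in controls (adjusted p = 0.00428). Unc5c, a netrin receptor that mediates repulsion, had -0.27 ± 0.13 in Lhx1epiCKO (adjusted p = 0.436) and -0.79 ± 0.13 in controls (adjusted p = 0.00395). The median anterior minus posterior difference of the 4 lists lay between 0.00 and 0.12 in Lhx1epiCKO and between -0.02 and 0.15 in controls, against 0.01 and 0.02 over all probes.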

How the data were processed

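RNA of 12 pools was hybridised to Illumina bead arrays. The deposited table holds log2 expression values normalized by the authors, and the submitters' processing notes list GenomeStudio and limma, without versions; the background correction and the normalization method are not given in the sources used here. Beside each value stands the deposited detection p-value. The name of 102 of the 111 member probes equals the platform symbol; 1 kept Plxnd1 probe carries another symbol there and 1 kept Ephb2 probe none.

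Samples were grouped by genotype and region from their titles. All 12 arrays were fitted together with limma 3.58.1 in R 4.3.3, with 1 mean for each group and no covariate, on the 17041 probes that passed a detection p of 0.05 on 3 or more arrays. The fit had 8 residual and 4.87 prior degrees of freedom. The tests were two-sided, p-values were adjusted by Benjamini-Hochberg over all kept probes, and a probe was called at an adjusted p under 0.05. Region differences are anterior minus posterior and genotype differences Lhx1epiCKO minus control. Every error given with a difference is the SE of the fit. The number of arrays limits the precision, and the labels call the 3 samples of a group biological replicates. The fit was checked on simulated data.

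A gene is represented by its kept probe of highest mean. Named are all called members, the 6 of smallest p in each genotype comparison, for each family the member of highest mean and that of the largest region difference in controls, and members without overlap between genotypes and a difference above 0.5. Genes beyond this, such as those given for their detection, were chosen after their values were seen. The members and lists were chosen with earlier results of these data known. Over all groups, same-numbered samples had a correlation of deviations over 0.1 in 2 of 18 pairs, with a range from -0.041 to 0.246. The numbers were not taken as pairs in the main fit. Between the parts in Lhx1epiCKO the same-numbered correlations were 0.068, 0.246 and 0.079, against -0.182 to 0.064 for unlike numbers. In controls the same-numbered ones were -0.003, -0.041 and 0.024. A pairing of the Lhx1epiCKO parts is not settled by these values, and fits with replicate blocks were run as alternatives. For a probe below background on every array of a group, a fold is a lower bound against the lowest detected signal of those arrays; it takes no account of sampling error. Summed signals add the linear values of the brightest kept probes. Alternatives were the filter, array weights, quantile normalization, median centring, an offset, an intensity trend, the other deposited table of the same log2 values, the arrays in the fit, replicate blocks, each array left out, both arrays that stood apart left out, and the mean over probes.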

Additional observations from a re-analysis of the deposited data

Results flagged for a closer look

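The measured genotype differences of Epha2 had opposite signs in the 2 parts, without overlap between genotypes, and neither passed. It was higher in every anterior Lhx1epiCKO array than in every anterior control array. In posterior parts it was lower in every Lhx1epiCKO array than in every control array. The posterior margin was small, with a highest Lhx1epiCKO value of 7.7943, that of replicate 3, and a lowest control value of 7.8132. The difference of the 2 genotype effects was 0.59 on the log2 scale, with a limma adjusted p of 0.981 and a range of 0.53 to 0.66 over the alternative fits (adjusted p 0.443 to 1). Without the array labelled posterior control replicate 2 it was 0.56, and without posterior Lhx1epiCKO replicate 3 it was 0.64.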

How the results depend on the processing

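Of the 27 differences of named genes followed through the alternatives, none changed sign. Of 663 single values, 612 kept their side of the threshold, 48 lost a call and 3 gained one. With array weights 3 members passed between genotypes in anterior parts, in place of 0, and 246 of all probes in place of 12. Leaving out 1 array at a time gave 1 to 7 calls between the parts in Lhx1epiCKO, in place of 4, and 6 to 14 in controls, in place of 11. In Lhx1epiCKO it gave 1 without anterior Lhx1epiCKO replicate 1 or 2, and 7 without posterior Lhx1epiCKO replicate 3 (0.563%, 0.71% and 2.26% of all probes). In controls it gave 6 without anterior control replicate 1 or 3 or posterior control replicate 2 or 3 (1.77%, 1.87%, 1.76% and 2.14% of all probes). Without anterior control replicate 2 it gave 7 (1.62%). With all arrays the shares of all probes were 1.27% in Lhx1epiCKO and 3.01% in controls, so the share of all probes fell in these fits too. Without both arrays that stood apart 7 passed in Lhx1epiCKO (2.49% of all probes) and 13 in controls (4.17%), and with the 6 arrays of the groups compared alone 1 passed in Lhx1epiCKO (0.376%) and 14 in controls (4.32%). The cause of these shifts was not tested. The replicate number as a block gave 0 calls between genotypes, against 0.0469% of all probes in anterior and 0.0% in posterior parts. Between the parts it gave 5 in Lhx1epiCKO (1.22% of all probes) and 11 in controls (2.69%). The block of genotype by replicate number gave 4 (1.03%) and 10 (2.19%). Sema7a lost its control call under both blocks (adjusted p 0.0803 and 0.13), without the filter (0.0665) and with the offset of 16 (0.0552). Calls that held in all alternatives were those of Efna1 in both genotypes and, in controls, Epha2, Plxna2, Sema3f, Ephb1 and the brightest Epha1 probe. Probes near the lowest detected signal limit the values of Epha3, Epha7, Ephb3 and Robo3, and the genotype differences of Sema6d, Sema6a, Sema5b and Sema3b.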
